A study of Mus musculus with 37 samples.

Results

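Mature microRNAs (miRNAs) of MLL-AF10 leukemia stem cells (MLL-LSC) were compared with those of normal long-term blood stem cells (LT-HSC) of the mouse. The comparison took the 3 runs labelled MLL-LSC and the 4 labelled LT-HSC, 7 of the 37 runs in the series. Every one of the 459 deposited assays, with 457 distinct names, was considered. MLL-LSC were sorted as Kit+ cells positive for MLL-AF10, from mice into which that oncogene had been transduced. LT-HSC were lineage-negative marrow cells positive for endoglin and Sca-1 with low rhodamine staining, described as quiescent and self-renewing. Both groups were from strain C57/Bl6 and carry the genotype label wildtype, although the leukemia carried the introduced fusion. Age, the number of mice or leukemias, and the cell type that had been transduced were not given in the sources used here. The 2 groups differed in gate as well as in disease, so leukemia and sorting gate cannot be told apart. Normal Kit+ Sca-1+ lineage-negative marrow progenitors of the same strain, also wildtype (KSL-B6, 3 runs), served as a second normal population. Each sample held between 20 and 1000 sorted cells, amplified by multiplex reverse transcription and read by TaqMan quantitative PCR.

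A miRNA is a short RNA that guides silencing complexes to messenger RNAs, mainly by pairing through its seed, bases 2 to 8. MLL-AF10 joins the start of the chromatin regulator MLL to the partner AF10 and holds the HoxA genes in an active state, which gives blood progenitors lasting self-renewal. Several miRNA genes lie inside the Hox clusters, among them those of miR-196a, miR-196b and miR-10a. Other miRNAs in blood mark lineages or brake growth: miR-150 is abundant in mature lymphocytes and represses Myb, miR-223 is abundant in granulocytes and their precursors, and the let-7 family rises in differentiated cells. The cluster of miRNAs from miR-17 to miR-92 (the miR-17 cluster) and its relatives promote proliferation and are direct targets of Myc.

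The mature sequences on which the results turn are given below from RefSeq (GRCm38.p6), 5′ to 3′, with the seed in capitals. A sequence was found for 22 of the 23 assays looked up, and an assay was matched to its miRNA by name. The first set comes from the Hox clusters and held the largest increases.
miR-196a: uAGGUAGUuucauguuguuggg
miR-196b: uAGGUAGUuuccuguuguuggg
miR-10a: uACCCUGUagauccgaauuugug
The miR-196 pair shares its seed and differs by the single substitution A12C (miR-196a base, position counted from 1 at the 5′ end, miR-196b base). Mature miR-196b lies at chr6:52230129-52230150 on the minus strand, in a hairpin gene between Hoxa9 and Hoxa10. miR-196a is encoded both next to Hoxb9 on chromosome 11 and between Hoxc10 and Hoxc9 on chromosome 15, and miR-10a lies within Hoxb3 on chromosome 11.

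The next set shows members of the miR-17 cluster and its paralogues, grouped by seed. The first 5 share the seed AAAGUGC, the next pair GUGCAAA and the last pair AUUGCAC.
miR-17-5p: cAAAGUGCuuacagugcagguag
miR-20: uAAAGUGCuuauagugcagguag
miR-93: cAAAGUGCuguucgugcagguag
mmu-miR-106a: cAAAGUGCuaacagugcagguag
miR-106b: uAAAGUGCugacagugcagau
miR-19a: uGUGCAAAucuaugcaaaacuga
miR-19b: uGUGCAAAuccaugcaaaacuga
miR-92: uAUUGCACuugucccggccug
miR-25: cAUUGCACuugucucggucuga
The let-7 members below share the seed GAGGUAG and are shown because 1 of them went against the others. let-7b and let-7c differ by G17A alone, and let-7g and let-7i by A17G and A19U.
let-7b: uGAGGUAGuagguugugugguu
let-7c: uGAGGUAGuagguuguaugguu
let-7g: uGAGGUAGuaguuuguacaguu
let-7i: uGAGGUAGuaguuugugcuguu
The last set holds miRNAs that were lower in MLL-LSC, with miR-146b beside its sister. The assay called miR-146 was matched to miR-146a. The miR-146 pair shares the seed GAGAACU and differs by G18A and U21C.
miR-29bN: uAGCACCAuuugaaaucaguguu
miR-146: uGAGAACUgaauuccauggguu
hsa-miR-146b: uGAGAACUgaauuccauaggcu
miR-130aN: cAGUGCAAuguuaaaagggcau
miR-31: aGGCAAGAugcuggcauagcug
miR-212: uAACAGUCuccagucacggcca

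Values were threshold cycles (Ct). A lower Ct means more RNA, 1 cycle stands for a 2-fold change at full PCR efficiency, and 40 means that no product was seen. An assay counted as detected below Ct 35. LT-HSC runs detected fewer assays (73, 85, 86 and 96 in runs 1 to 4) than MLL-LSC runs (124, 125 and 119). Over the 50 assays detected in all 7 runs, the mean Ct was 27.9 ± 0.45 (SD, n = 4) in LT-HSC and 26.0 ± 0.14 (SD, n = 3) in MLL-LSC. The difference was -1.95 cycles, and the number of cells in each tube was not given. In LT-HSC, 31 of 85 assays with a run below Ct 32 were not detected in another run, against 5 of 106 in MLL-LSC. The part of this run-to-run loss in the results was not tested.

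Each run was centred on its mean Ct over those 50 assays, so every difference below is a log2 difference relative to them, MLL-LSC minus LT-HSC, ± its standard error. Levels were held at a common floor, the lowest level measurable in all runs, which lay at Ct 32.3 to 32.6 in MLL-LSC and Ct 33.9 to 35 in LT-HSC. Where no run of a group rose above the floor, the difference is a bound, written "at least" or "or lower", and its standard error holds the spread of the other group only. Where some runs of a group were at the floor, the difference is understated if those runs held that little RNA. If instead they missed RNA that was present, it can be overstated. A bound rests on the same condition, and which case applied was not tested. It holds for its assay, and a second assay of the same miRNA can read otherwise, as for miR-181b below. Assays seen in all runs of MLL-LSC, of LT-HSC or of both were tested, with limma's moderated two-sided test and Benjamini-Hochberg adjustment. The labels do not say that runs came from separate mice, and the p-values reflect only how far the runs differed among themselves. For a bound, the group held at the floor adds no spread, which can make the p-value too small. These were sorted bulk samples, in which fewer cells of a type and less RNA per cell cannot be told apart.

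Of the 459 assays, 304 were detected in none of the 7 runs and 155 in at least 1. Of these 155, 123 were tested and 32 were not, 22 of the 32 having been seen in LT-HSC runs only. All MLL-LSC runs detected 116 assays and all LT-HSC runs 57, so most tested assays entered through MLL-LSC alone. That filter favours higher values, also in the list shares below. In MLL-LSC 49 assays were higher (39.8% of those tested) and 17 lower (13.8%), 66 in all (53.7%). The groups did not overlap for 77 of the 123 (62.6%), and 21 of the higher and 5 of the lower calls are bounds. The median difference was 0.80 over the tested assays and 0.50 over the 50 common ones, so a small positive value is close to the middle of all assays. Detection was one-sided for many: 32 assays were detected in every MLL-LSC run and in no LT-HSC run, and 4 the other way. The count rests on the scaling: centring on the median of the common assays gave 27 higher and 21 lower, and 25 of the higher and 12 of the lower calls held under all 4 other scalings. With the replicate number as a block, 54 assays were called, 40 higher and 14 lower.

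**Figure D1:**
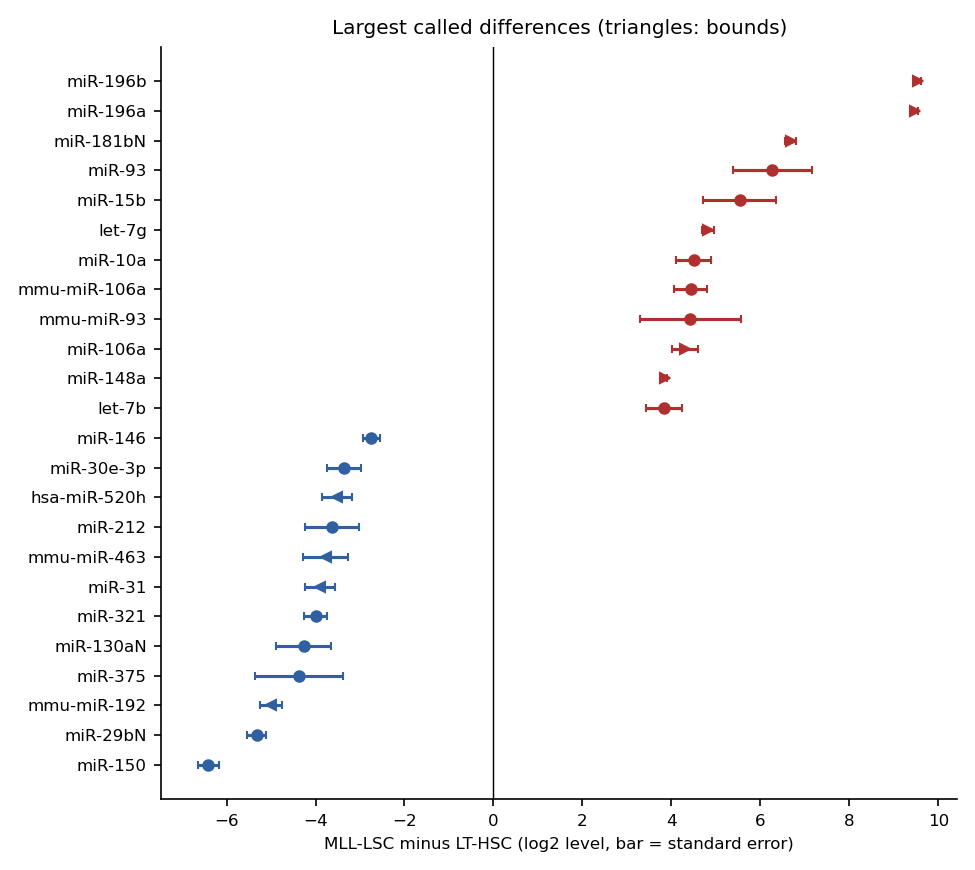
The 12 largest increases and the 12 largest decreases among the called assays, as log2 differences of MLL-LSC minus LT-HSC (horizontal axis; bars are standard errors; right-pointing triangles are "at least" and left-pointing triangles "or lower"). miR-196b and miR-196a stand at 9.55 and 9.48, and miR-150 and miR-29bN at -6.41 and -5.32.

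The 3 detected Hox cluster assays were all higher in MLL-LSC, against 39.8% of all tested assays. All 3 entered the test only through MLL-LSC, where they were high. LT-HSC detected miR-196a and miR-196b in 0 runs and miR-10a in 2. Their count is therefore no separate support for a change of the list. The miR-196 pair gave the 2 largest differences among the 123 tested. The Ct of miR-196b was 23.1, 22.8 and 22.8 in the MLL-LSC runs and 40 in all 4 LT-HSC runs. That of miR-196a was 23.2, 22.9 and 22.8 against 40 in all 4 LT-HSC runs. No LT-HSC run gave product for either, while in MLL-LSC both were among the earlier signals. The level was higher by at least 9.55 ± 0.06 for miR-196b and at least 9.48 ± 0.06 for miR-196a (limma adjusted p = 8.18e-10 for each). Under the alternatives tried, the bound of miR-196b ranged from 6.53 to 12.4, and the call held in all.

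The assays rest on a pair of RNAs that differ at 1 base, and cross-reading between them was not tested. miR-10a had a Ct of 27.6, 27.2 and 27.5 in MLL-LSC and of 40, 40, 33.6 and 32.5 in LT-HSC. Its groups did not overlap, and it was higher by 4.50 ± 0.40 (limma adjusted p = 0.00024). Both assays for miR-10b, from the HoxD cluster, were undetected in all 7 runs. The 3 calls held under all 4 other scalings and with the block.

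**Figure D2:**
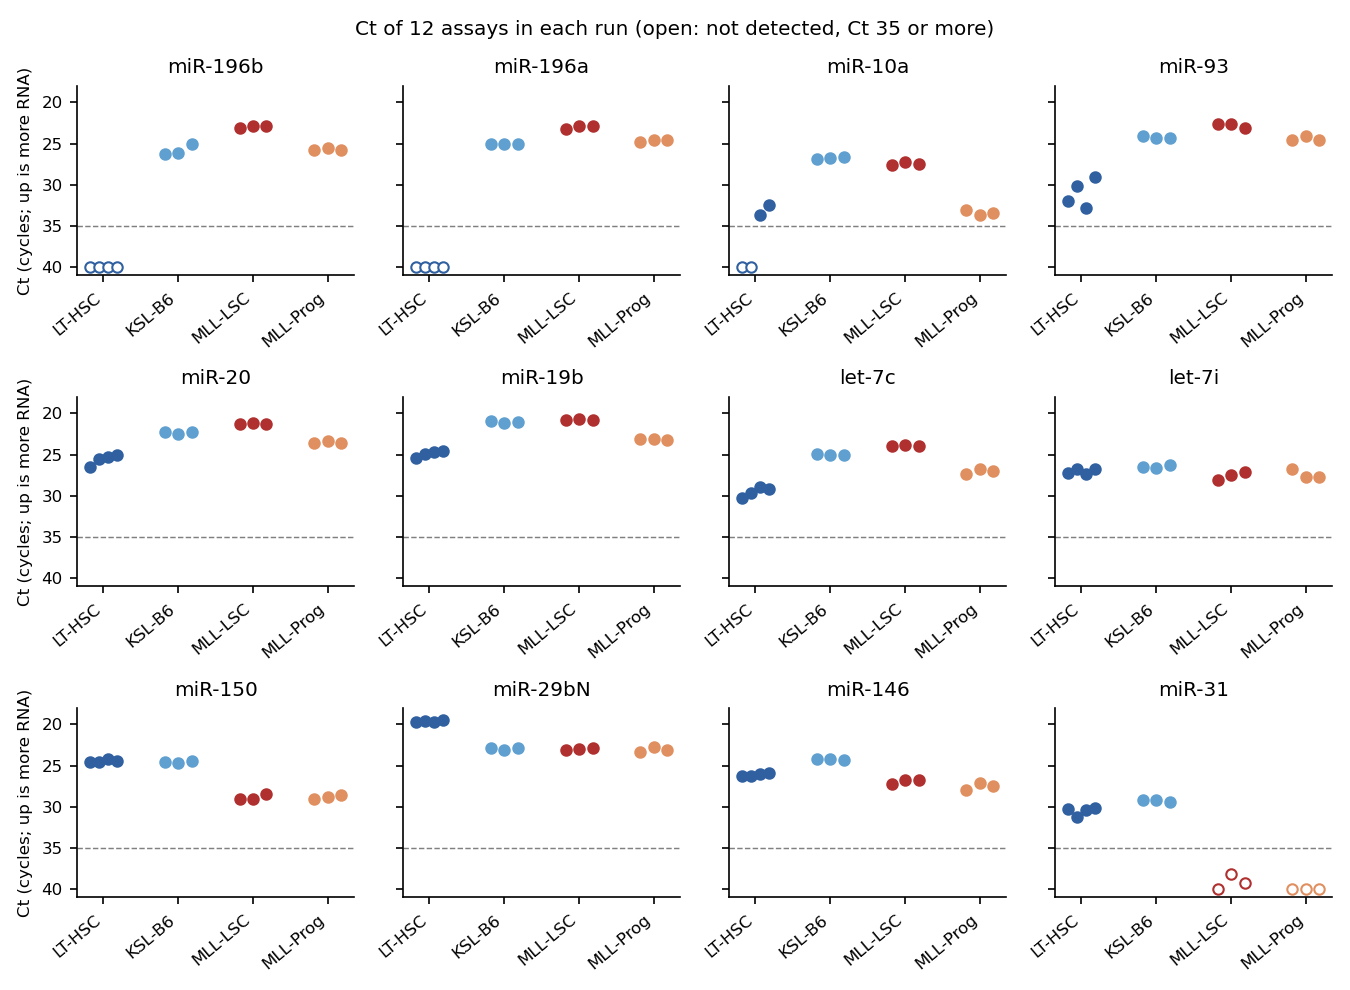
Ct (cycles, axis inverted so that more RNA is up) of 12 assays in each run of LT-HSC, KSL-B6, MLL-LSC and MLL-Prog, the Kit- cells of the same leukemia. Filled points were detected and open points lay at or above the dashed line at Ct 35: miR-196a and miR-196b are open at 40 in all 4 LT-HSC runs, and miR-31 is open in all MLL-LSC runs.

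miR-20 and miR-19b, of the miR-17 cluster, were higher in MLL-LSC. Of 9 assays 7 were tested, 4 were higher (against 39.8% of all tested assays) and none lower, with a median difference of 2.16 against 0.80 over all tested assays. With quantile scaling 3 were called and with median centring 2, and 1 member lay below 0 in each (-0.47 and -0.53). miR-20, of the AAAGUGC seed, had a Ct of 21.3, 21.2 and 21.3 in MLL-LSC and of 26.5, 25.5, 25.3 and 25.1 in LT-HSC. miR-19b had a Ct of 20.8, 20.7 and 20.8 in MLL-LSC and of 25.4, 24.9, 24.7 and 24.5 in LT-HSC. Every MLL-LSC run was ahead of every LT-HSC run for both, before and after centring. Their differences were 2.39 ± 0.14 for miR-20 (limma adjusted p = 3.13e-05) and 2.16 ± 0.09 for miR-19b (8e-06).

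The other members of the cluster were less firm. miR-92 was higher by 1.14 ± 0.25 (limma adjusted p = 0.0112; 0.0834 with the replicate block) and its second assay, miR-92N, stood at 2.95 ± 1.05 (0.0604; 0.0421 with the block). miR-19a was higher by 2.00 ± 0.66 (limma adjusted p = 0.0479), a call that ended in 5 of the 7 fits without 1 run. It also ended under 7 of the 11 other alternatives, among them quantile scaling, median centring and the block (limma adjusted p = 0.116). miR-17-5p, which shares its seed with miR-20, did not pass (0.25 ± 0.71), with a Ct of 31.2, 31.4 and 31.1 in MLL-LSC and of 36.7, 31.6, 33.5 and 33.6 in LT-HSC. miR-18, named after its values were seen, read 40, 40, 39.1 and 29.0 in LT-HSC and did not pass (2.75 ± 1.38), but passed with the block (3.98; adjusted p = 0.00288). miR-19b and miR-92 are also encoded on the X chromosome, with the same mature sequence.

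The paralogous clusters, miR-106b-25 inside the replication gene Mcm7 and miR-106a-363 on the X chromosome, held higher calls and no lower one. Of 9 assays 6 were tested and 5 were higher (against 39.8% of all tested assays), none lower, with a median difference of 4.37. Only 2 of the 6 were detected in every run, with a median difference of 3.86. The rest entered the test only through MLL-LSC, which favours higher values. With quantile scaling or median centring 3 of the 6 were called, and all 6 differences stayed above 0. miR-93 had a Ct of 22.6, 22.6 and 23.1 in MLL-LSC and of 32, 30.1, 32.8 and 29.0 in LT-HSC, and was higher by 6.26 ± 0.89 (limma adjusted p = 0.00172). LT-HSC runs spread widely for this miRNA, and all lay behind the MLL-LSC runs. Its second assay, mmu-miR-93, was higher by 4.42 ± 1.13 (limma adjusted p = 0.0197; 0.0662 with the block). The pair of miR-106a assays gave 4.44 ± 0.37 for mmu-miR-106a and at least 4.31 ± 0.29 for miR-106a.

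miR-106b, from the same host gene as miR-93, was higher by 1.45 ± 0.26 (limma adjusted p = 0.00428). That call ended with quantile scaling (0.44), with median centring and with all groups in 1 fit. Its Ct was 26.0, 26.3 and 26.0 in MLL-LSC and 30.4, 29.9, 28.8 and 28.9 in LT-HSC. miR-25, chosen after its values were seen, did not pass (3.15 ± 1.51): 2 LT-HSC runs read 29.6 and 29.7 and the other 2 read 40 and 39.5, against 26.8 to 27.1 in MLL-LSC. The MLL-LSC runs lay ahead of all 4.

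The let-7 family, repressors of Hmga2 and Ras, held more higher than lower calls in the leukemia. Of 10 assays 7 were tested, 5 were higher (against 39.8% of all tested assays) and 1 lower. Only 3 of the 7 were detected in every run, with a median difference of 3.66, and the rest entered the test only through MLL-LSC. With median centring 3 of the 7 were called higher, and with the replicate block 4. let-7c had a Ct of 23.9, 23.8 and 23.9 in MLL-LSC and of 30.2, 29.6, 28.9 and 29.2 in LT-HSC, a difference of 3.66 ± 0.17 (limma adjusted p = 1.26e-05). let-7b was higher by 3.84 ± 0.40, with a Ct of 24.8, 24.9 and 24.9 against 30.2, 31.1, 30.8 and 30.5. The groups did not overlap for either. let-7g was not seen in LT-HSC (40 in all 4 runs) and had a Ct of 27.5, 27.6 and 27.8 in MLL-LSC, higher by at least 4.81 ± 0.14.

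let-7i went the other way. Its Ct was 28.1, 27.5 and 27.1 in MLL-LSC and 27.2, 26.8, 27.4 and 26.8 in LT-HSC. The raw Ct values overlapped, and after centring every MLL-LSC run lay below every LT-HSC run, by 2.46 ± 0.30 (limma adjusted p = 0.000877). It stayed called under the other scalings except without any scaling, where the difference was -0.52. let-7a, not seen in LT-HSC, was near the floor in MLL-LSC (at least 0.25 ± 0.14, not called).

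Several miRNAs outside these families were higher by more than 3 units. miR-181bN, an assay for a miRNA active in lymphoid development, had a Ct of 25.8, 25.6 and 25.9 in MLL-LSC and of 40, 40, 36.3 and 38 in LT-HSC, at least 6.68 ± 0.12. A second assay of the same miRNA, hsa-miR-181b, detected it in all 4 LT-HSC runs (27.3, 27.2, 26.4 and 25.9; MLL-LSC 22.4, 23.0 and 22.5) and gave 2.12 ± 0.26. Both were called, and they put the size 4.56 units apart. The second assay detected the miRNA in every LT-HSC run that miR-181bN did not. The bound of miR-181bN is therefore not a lower limit for miR-181b, and why the assays differed was not tested. miR-148a was seen only in MLL-LSC among these 7 runs (28.8, 28.6 and 28.4 against 40 in all LT-HSC runs; at least 3.85 ± 0.04). miR-15b, of the cell cycle brake family, was higher by 5.53 ± 0.81, with LT-HSC at 40, 40, 31.5 and 31.8 and MLL-LSC at 25.6, 25.5 and 26.0.

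The other tested members of the miR-15/16 family moved little. miR-16 did not pass (0.43 ± 0.20), and miR-195 was called at 0.49 ± 0.09, but both had negative values under quantile scaling (-1.01 and -0.13). In the miR-23/27/24 clusters 2 of 5 tested assays were higher, the same share as over all tested assays (39.8%): miR-23bN (3.25 ± 0.24) and miR-27b (at least 2.88 ± 0.16). Both calls ended with all groups in 1 fit and with detection below Ct 32, where the differences were 0.38 and 0.081. The second assay of miR-27b, miR-27bN, stood at 2.88 ± 1.43 (limma adjusted p = 0.144, not called). It read 30.7, 29.9, 40 and 34.1 in LT-HSC, so it detected the miRNA in 3 runs that miR-27b read at 40. The small standard error of the miR-27b bound leaves this spread out. miR-27a stood at 2.93 ± 1.01 (limma adjusted p = 0.0538) and passed with the block (3.78; 0.000938).

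In the miR-30 family both strands of miR-30e were called lower and 3 other members higher under the main scaling. Of 7 tested assays 3 were higher and 2 lower, against 39.8% and 13.8% of all tested assays. The higher ones were miR-30c (3.06 ± 0.36), miR-30a-3p (at least 3.65 ± 0.04) and miR-30d (at least 1.98 ± 0.25). The call for miR-30d ended with detection below Ct 32 and with all groups in 1 fit. The passenger strand miR-30e-3p was lower by 3.35 ± 0.39 (limma adjusted p = 0.000746), with a Ct of 30.6, 30.4 and 30.3 in MLL-LSC and of 28.8, 29.8, 28.6 and 28.9 in LT-HSC. It was lower in raw Ct as well, with no overlap of the runs. miR-30e was the other lower member (-0.50 ± 0.15, limma adjusted p = 0.0388). Its raw Ct was earlier in MLL-LSC (26.7, 26.5 and 26.6) than in LT-HSC (28.4, 27.9, 28.1 and 27.8). Without scaling, and centred on the mean of detected assays, miR-30e-3p was the only member below 0, so the direction of miR-30e depends on the scaling.

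miR-150 showed the largest decrease. Its Ct was 24.5, 24.5, 24.2 and 24.4 in LT-HSC and 29.1, 29.0 and 28.5 in MLL-LSC. The runs of each group lay close together, and the groups were far apart before any scaling. The level was lower by 6.41 ± 0.24 (limma adjusted p = 6.13e-06), and the value under the alternatives tried ranged from -7.40 to -4.47. miR-150 is on the list of lymphoid miRNAs, of which 8 assays were tested, 5 were higher and 1, miR-150, lower (39.8% and 13.8% over all tested assays). With median centring 3 were called higher, with a list median of 0.05. Among the higher ones were the miR-181b assays and miR-28 (at least 2.58 ± 0.29), whose call ended with detection below Ct 32 and with all groups in 1 fit. miR-155 was higher by at least 0.85 ± 0.14, and its second assay, mmu-miR-155, by 0.65 ± 0.19 (limma adjusted p = 0.0327; 0.173 with the block), below the median of all tested assays and turning to -0.13 under quantile or median scaling.

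miR-29b was next. It was among the earliest signals of LT-HSC, with a miR-29bN Ct of 19.7, 19.6, 19.7 and 19.5, against 23.1, 23.0 and 22.9 in MLL-LSC. The runs were tight within each group, and the difference was -5.32 ± 0.22 (limma adjusted p = 8.45e-06). The other miR-29 members, which share its seed, did not follow: miR-29a was higher by 2.21 ± 0.45 (limma adjusted p = 0.00818), a call that ended under 6 of the 11 other alternatives, and miR-29c stood at 2.15 ± 0.84 (adjusted p = 0.0815). The plain miR-29b assay and hsa-miR-29a read 40 in all 7 runs, so the values for miR-29b and miR-29a rest on 1 detected assay each.

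The miR-146 sisters moved apart. miR-146a, a feedback inhibitor of NF-kB signalling through Traf6 and Irak1, had a Ct of 26.3, 26.2, 26.0 and 25.9 in LT-HSC and of 27.2, 26.7 and 26.8 in MLL-LSC. miR-146b, with the same seed, had a Ct of 28.2, 27.4, 27.3 and 27.6 in LT-HSC and of 24.2, 24 and 23.8 in MLL-LSC. The order of the groups was reversed between the sisters, with no overlap for either. miR-146a was lower by 2.75 ± 0.19 (limma adjusted p = 6.78e-05) and miR-146b higher by 1.68 ± 0.17 (0.000436). The call for miR-146b ended under 1 alternative.

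miR-130aN and miR-31 were also lower. miR-130aN, for a miRNA of early blood progenitors, was lower by 4.27 ± 0.61 (limma adjusted p = 0.00176), with a Ct of 29.2, 29.6, 30.4 and 29.2 in LT-HSC and of 31.0, 32.9 and 32.4 in MLL-LSC. miR-31 read 30.3, 31.2, 30.4 and 30.1 in LT-HSC and 40, 38.2 and 39.3 in MLL-LSC, a difference of -3.89 ± 0.34 or lower. It was undetected in every leukemia run. The second assay, hsa-miR-31, was undetected in all 7 runs (37.5 to 40), as was miR-130a. Yet hsa-miR-31 read 28.4, 28.2 and 28.1 in KSL-B6, where miR-31 read 29.2, 29.2 and 29.4. Both assays thus gave signal in mouse cells, and only miR-31 gave it in LT-HSC. The decrease of miR-31 against LT-HSC therefore depends on the assay, and the cause was not tested.

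miR-212, from a locus induced by CREB, was lower by 3.64 ± 0.61 (limma adjusted p = 0.0035; 0.0643 with the block), with 1 of 3 MLL-LSC runs undetected (31.4, 30.1 and 35.1 against 30.0, 30.1, 28.8 and 29.4). Its cluster partner miR-132 was not tested: it was detected in 2 LT-HSC runs, at 34.8 and 34.3, and read 40 in all MLL-LSC runs. miR-321 was abundant in both groups and lower by 4.00 ± 0.26, with a Ct of 19.9, 19.4, 19.5 and 19.4 in LT-HSC and of 21.2, 21.8 and 21.8 in MLL-LSC. For mmu-miR-463 the difference was -3.77 ± 0.50 or lower.

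Several miRNAs that define blood cells did not pass the test. miR-223, the earliest signal in both groups, had a Ct of 19.5, 18.9, 19.1 and 19.0 in LT-HSC and of 17.7, 17.4 and 17.3 in MLL-LSC. It was named after its values were seen. After centring the runs overlapped, and the difference was -0.29 ± 0.17 (95% confidence interval -0.70 to 0.12; not called). Of the 6 tested myeloid assays 2 were higher and 1 lower, shares close to those over all tested assays (39.8% and 13.8%), with a median of 0.99. With quantile scaling none was higher and 1 lower (median 0.09), and with median centring 1 was higher and 2 lower (median 0.22). The higher ones were miR-146b and miR-142-3p, a miRNA of all blood cells (1.60 ± 0.46, limma adjusted p = 0.0315, and 0.097 with the block). A second assay, mmu-miR-142-3p, stood at 1.75 ± 0.79 (limma adjusted p = 0.117, not called) and was detected in 1 LT-HSC run only.

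Of 17 assays for miRNAs known from blood stem cells 7 were tested, 4 were higher and 1 lower (39.8% and 13.8% over all tested assays). The median was 0.75, close to that of all tested assays, and it turned negative under quantile (-0.05) and median scaling (-0.03). With quantile scaling 1 was higher and with median centring none. miR-126, a miRNA of quiescent blood stem cells and of endothelium, was erratic in LT-HSC (33.1, 28.6, 32.1 and 40) and read 29.6, 28.5 and 30.6 in MLL-LSC. Its difference was 0.42 ± 1.45, with a 95% confidence interval of -3.17 to 4.02, which leaves a large change in either direction possible. miR-99a and miR-100, which mark primitive progenitors, were undetected in all 7 runs, and miR-125a was seen in 1 run of each group. Against KSL-B6, which detected all 3, MLL-LSC stood at -5.46 ± 0.22 or lower for miR-99a, -5.86 ± 0.26 or lower for miR-100 and -8.79 ± 0.19 for miR-125a. All 3 KSL-B6 runs thus detected these markers, while at most 1 LT-HSC run detected any of them. Of the Kit-targeting pair, mmu-miR-221 was higher by 1.49 ± 0.22 (limma adjusted p = 0.00214), and miR-222 stood at 0.75 ± 0.33 (not called). Both were below 0 under quantile scaling (-0.03 and -0.05).

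**Figure D3:**
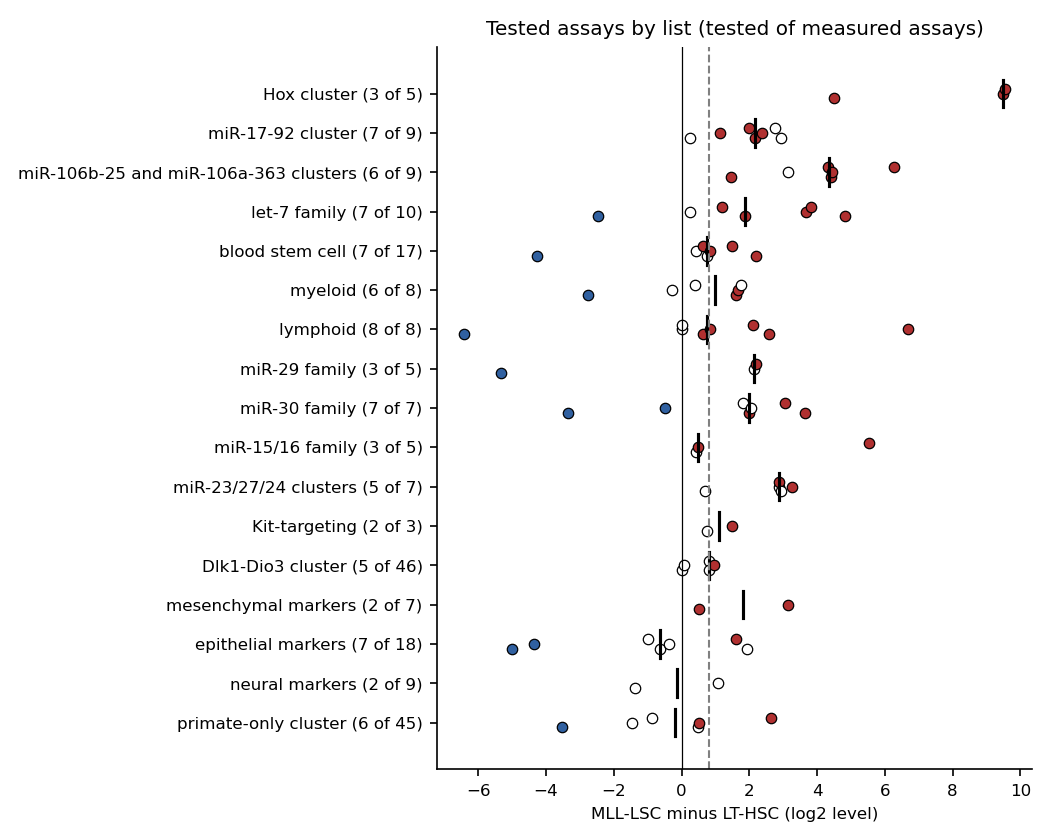
Log2 differences of the tested assays in each list with 2 or more of them (horizontal axis; red, called higher; blue, called lower; white, not called; black bar, list median; dashed line, median of all 123 tested assays at 0.80). The Hox list lies at 4.50 to 9.55, and 1 let-7 member, 1 miR-29 member and 2 miR-30 members, both from miR-30e, lie below 0 while the rest of their lists lie above it.

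Markers of other cell types were few. For erythroid cells, 3 assays gave none that could be tested, but hsa-miR-451, the erythroid miRNA, read 40, 30.1, 32.3 and 32 in LT-HSC and 40 in all 3 MLL-LSC runs. mmu-miR-451 read 28.6 in LT-HSC run 3 and 40 in the other 6. Of the mesenchymal miRNAs 5 of 7 were undetected, miR-145 was higher by 3.14 ± 0.36 (MLL-LSC 28.7, 29.0 and 28.6; LT-HSC 40, 40, 33.2 and 32.8) and miR-143 by at least 0.51 ± 0.17 (limma adjusted p = 0.0477; 0.135 with the block). Whether stromal cells were part of the sorted leukemia samples was not tested.

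Of the 18 epithelial assays 7 were tested, 1 was higher and 2 lower (39.8% and 13.8% over all tested assays). miR-200b was higher by at least 1.61 ± 0.07, but at 0 with detection below Ct 32 and with all groups in 1 fit. miR-375, known from pancreatic islets, was lower by 4.36 ± 0.99 (limma adjusted p = 0.0122), with LT-HSC at 27.4, 28.0, 28.4 and 29.2 and MLL-LSC at 30.4, 29.3 and 35.4, 1 of them undetected. That call ended without scaling and with all assays tested. The 2 tested neural assays did not pass (miR-128a 1.07 ± 0.81; miR-218 -1.37 ± 1.04 or lower). The muscle miRNA miR-206 was at the floor in both groups, and miR-133a was detected in 1 LT-HSC run only, at 34.8.

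Of the 13 assays for miRNAs of embryonic stem cells, 1 was tested, mmu-miR-294, which was lower by 1.78 ± 0.45 (limma adjusted p = 0.0188; 0.0747 with the block). Of 46 assays from the imprinted Dlk1-Dio3 locus 5 were tested and 1 was higher, against 39.8% of all tested assays. It was hsa-miR-431 (at least 0.95 ± 0.31, limma adjusted p = 0.0477, and 0.135 with the block). Its second assay, mmu-miR-431, stood at 0.80 ± 0.69 (limma adjusted p = 0.364, not called). In LT-HSC mmu-miR-431 read 34.7, 36, 31.5 and 33.3, where hsa-miR-431 read 40, 40, 39.1 and 39.7. miR-34aN, the miRNA induced by p53, was not tested: it read 34.6, 37.3, 30.3 and 29.8 in LT-HSC and 36.5 to 39.3 in MLL-LSC.

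Assays for a miRNA cluster known only from primates gave a reading of signal that does not come from the named miRNA in mouse cells. Of 45 such assays 6 were tested and 3 were called, against 53.7% of all tested assays. hsa-miR-525 was higher by at least 2.65 ± 0.26, hsa-miR-522 higher by 0.51 ± 0.13 (limma adjusted p = 0.0197; 0.106 with the block) and hsa-miR-520h lower, at -3.52 ± 0.33 or lower. hsa-miR-522 read 27.3, 26.3, 26.6 and 26.3 in LT-HSC and 24.3, 24.2 and 24 in MLL-LSC, well within the range of the mouse miRNAs above. What these 3 assays amplified was not tested, and calls of this size occurred on assays without a mouse target.

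For 15 miRNAs a pair of assays was tested. Both were called in the same direction for 5 pairs, neither for 4 and 1 of the 2 for 6, and no pair was called in opposite directions. The median gap between the 2 differences was 0.33. The widest was for miR-192, a miRNA of liver and gut: mmu-miR-192 was lower, at -4.99 ± 0.25 or lower (LT-HSC 29.7, 29.2, 29.1 and 29.6; MLL-LSC 34.3, 34.3 and 33.4), while miR-192 stood at 1.93 ± 0.88 (LT-HSC 40, 40, 38.9 and 30.8; MLL-LSC 29.8, 29.6 and 29.8) and was called higher with the block (2.71; limma adjusted p = 0.00295). The direction for miR-192 therefore depends on the assay. Another 7 assays of miRNAs named here were detected in none of the 7 runs, 6 of them at 40 throughout.

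**Figure D4:**
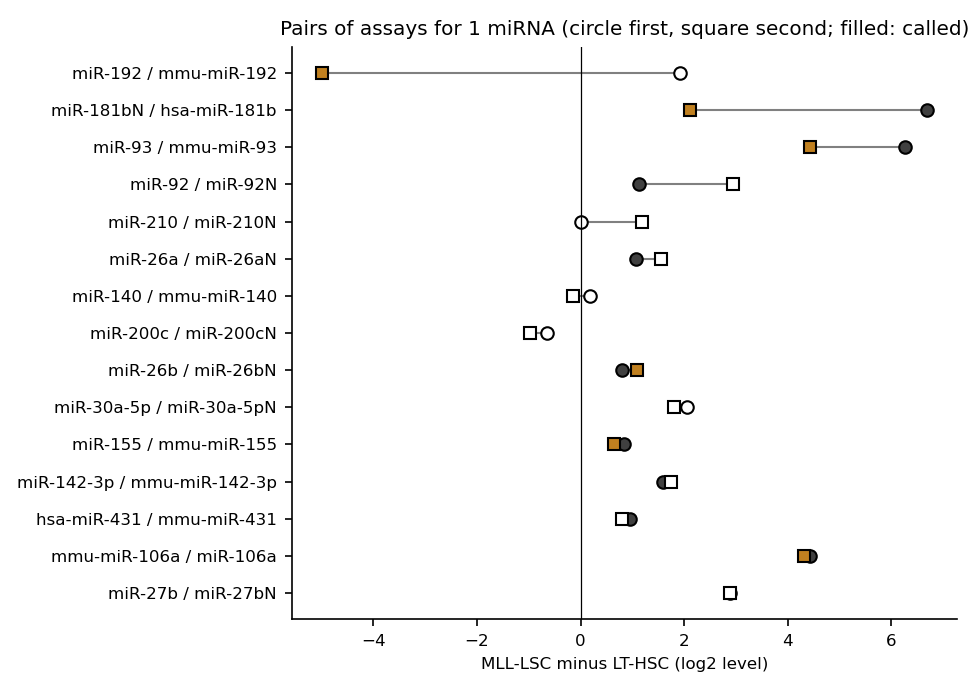
Log2 differences of MLL-LSC minus LT-HSC from the pairs of assays for 15 miRNAs (circle, assay named first; square, assay named second; filled, called; lines join a pair). Most pairs lie within 1 unit, and the miR-192 pair lies 6.92 units apart, on either side of 0.

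The normal progenitors KSL-B6 give the same leukemia runs a second reference, in a population described as proliferative and not self-renewing. Of 135 tested assays 47 were higher in MLL-LSC (34.8%) and 42 lower (31.1%), 89 in all (65.9%), and the median difference was 0.16. The 2 comparisons share the MLL-LSC runs, so their values are only set side by side. Against KSL-B6, where it had a Ct of 26.2, 26.1 and 25.0, miR-196b was higher by 2.56 ± 0.32 (limma adjusted p = 0.000925). Against the same runs miR-196a (KSL-B6 25.1, 25.1 and 25.0) was higher by 1.79 ± 0.14 (0.000132), and miR-10a was lower by 0.98 ± 0.14 (0.00139). KSL-B6 carried all 3 Hox miRNAs that LT-HSC runs lacked or held near the detection limit.

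For the miR-17 and let-7 groups the values against KSL-B6 ran in both directions. miR-20 was higher than in KSL-B6 by 0.72 ± 0.11, where it was 2.39 against LT-HSC. miR-19b stood at -0.08 ± 0.10 against KSL-B6 (not called), miR-93 was higher by 1.16 ± 0.18 and mmu-miR-106a was lower by 1.58 ± 0.18. let-7b, let-7c and let-7g were higher than in KSL-B6 by 0.99 ± 0.12, 0.86 ± 0.11 and 1.12 ± 0.17. let-7i was lower by 1.44 ± 0.27.

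miR-150 was lower than in either normal population. KSL-B6 read 24.5, 24.7 and 24.4, and the difference was -4.64 ± 0.20 (limma adjusted p = 9e-06). miR-146a (-2.98 ± 0.16), miR-130aN (-6.44 ± 0.52) and miR-31 (-5.62 ± 0.14 or lower) were also lower than in KSL-B6. miR-29bN stood at -0.38 ± 0.12 against KSL-B6, which read 22.9, 23.1 and 22.8, and miR-321 was 2.22 ± 0.28 above it. miR-223 was higher than in KSL-B6 by 3.02 ± 0.17, and miR-126 was lower by 5.54 ± 0.50. The tests against the 2 references were made separately, and the difference between them was not tested.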

How the data were processed

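Ct values (a score to 1 decimal, lower for more RNA) were deposited by the authors for each assay and run. Per the labels' protocols, sorted cells were lysed and amplified by multiplex reverse transcription for TaqMan assays, and 425 miRNAs are stated. The threshold setting and any normalization are not given there. No unit gives counts, and the number of runs limits the precision.

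Computed here in R 4.3.3 with limma 3.58.1: Ct capped at 35, runs centred, a common floor, lmFit and eBayes, and Benjamini-Hochberg adjustment at 0.05 within each comparison (values rounded to 8 decimals). The method was run on simulated data with equal noise in both groups and without random loss of an assay in single runs. That simulation does not cover the run-to-run loss seen in LT-HSC. Figures were drawn with matplotlib 3.10.9. The rule for naming assays took the 12 largest increases and the 12 largest decreases among calls without overlap, the Hox cluster assays, miR-150, up to 4 members of each of 23 lists by adjusted p, and second assays of those; the text says where others were chosen after their values were seen. let-7a, miR-17-5p, miR-30e, miR-34aN, miR-99a, miR-100, miR-125a and miR-132, all on the lists, were also chosen that way. The members and lists were chosen with earlier results of these data known. Replicate numbers come from the labels. MLL-LSC and LT-HSC runs of the same number had residuals correlated at 0.15, 0.23 and 0.16. Runs of unlike number ranged from -0.19 (MLL-LSC 3 with LT-HSC 2) to 0.18 (MLL-LSC 3 with LT-HSC 4), so a pairing is not shown. A fit with the number as a block is given where it changes a call. Between MLL-LSC and KSL-B6, runs of the same number stood at -0.05, -0.41 and -0.29. Between runs of a group, the SD of Ct differences was 0.66 to 0.93 in LT-HSC and 0.47 to 0.56 in MLL-LSC, and no 2 runs were repeats of one another.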

Additional observations from a re-analysis of the deposited data

Results flagged for a closer look

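In 9 of the 53 named assays with a spread in LT-HSC, 1 LT-HSC run lay apart from the other 3 by Dixon's criterion at 95%, applied to centred levels. Chance flags about 1 in 20 groups, but that rate does not hold where the other 3 runs were at the floor. There the criterion flags the remaining run whatever its value, as for miR-23bN, miR-192, hsa-miR-432, mmu-miR-106a and mmu-miR-142-3p. For LT-HSC run 1 these were let-7b (Ct 30.2, high for the depth of that run) and miR-142-3p (29.1, low). For run 2 they were miR-23bN (33.9, the 1 run that detected it), mmu-miR-106a (33.3), mmu-miR-142-3p (31.6) and hsa-miR-522 (26.3), each high. For run 3 they were let-7c (28.9) and hsa-miR-432 (34.1), both high. For run 4 it was miR-192 (30.8), the 1 run that detected it. The calls for let-7b, let-7c, miR-23bN and mmu-miR-106a held in all 7 fits without 1 run. Those for miR-142-3p and hsa-miR-522 ended in 4 of the 7. No cause was tested.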

How the results depend on the processing

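The count of 66 assays called between MLL-LSC and LT-HSC ranged from 55 without MLL-LSC run 2 to 81 without LT-HSC run 1. It moved by more than 1.5 times with detection below Ct 32 (37 called, 24 higher and 13 lower), without scaling (107, 93 higher and 14 lower), and, an alternative chosen after seeing the data, over only the assays detected in every run (32 of 50 tested). Higher calls made up 74.2% in the main setting, 62.9% (44 higher, 26 lower) with quantile normalization, 56.2% centred on the median of common assays (27 and 21) and 62.7% with all groups in 1 fit (32 and 19). The median difference, 0.80, became 0.54 with quantile normalization, 2.89 without scaling, 0.05 with median centring and 1.81 centred on the mean of detected assays. Against KSL-B6 the count of 89 ranged from 80 to 93 with 1 run left out, was 84 with the replicate block, and fell to 41 with all groups in 1 fit. Median centring gave 64.2% higher calls there (52 higher, 29 lower), against 52.8%.

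Signs turned with quantile normalization for miR-16 (-1.01), miR-24 (-0.45), miR-195 (-0.13), hsa-miR-522 (-0.89), mmu-miR-155 (-0.13) and mmu-miR-221 (-0.035). They turned with median centring for miR-195 (-0.29), hsa-miR-522 (-0.26) and mmu-miR-155 (-0.13), and with all groups in 1 fit for miR-195 (-0.21), hsa-miR-522 (-0.19) and mmu-miR-155 (-0.057). The cause was not tested. With the replicate block, 16 calls were lost and 4 gained; for the named assays these are given in the report, and it changed no other call of a named assay. In all, 53 of the 66 calls held in every fit without 1 run and 36 held there and under the 4 other scalings. Those that ended in 2 or more such fits included miR-19a (5), hsa-miR-431 (5), miR-142-3p (4), hsa-miR-522 (4), miR-143 (4), mmu-miR-155 (4), mmu-miR-294 (2) and mmu-miR-93 (2). Detection below Ct 32 also ended the calls for miR-92, miR-155, miR-142-3p, hsa-miR-525, hsa-miR-520h and mmu-miR-463, median centring those for miR-92, miR-155, miR-142-3p, mmu-miR-93 and mmu-miR-221, and no scaling that for miR-212. Few LT-HSC assays below Ct 35 limit what can be measured there.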
